A study of Mus musculus with 9 samples.

Results

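Long noncoding RNAs (lncRNAs) that were well expressed in mouse embryonic fibroblasts (MEFs) are described here across cells sorted for low and high MYC. The members were chosen by their level: lncRNA genes of the deposited expression table whose mean over its 4 RNA-seq libraries was at least 0.5, without H19 and Meg3. The rule found 119 of the 19769 genes listed, while 2040 other lncRNA genes were below the threshold. Small nucleolar RNA (snoRNA) host genes of the Snhg series and Gas5, 10 of the 119, were set apart from the other 109. The level is given as normalized FPK, fragments per kilobase of transcript divided by a score of spiked-in ERCC transcripts whose amount followed the number of cells, so values refer to cells and not to the size of a library.

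The RNA came from primary MEFs homozygous for a Myc-Egfp fusion at the Myc locus (Myc-Egfp+/+). All cells had been exposed to 20 µM MG-132, an inhibitor of the proteasome, for 6 h, sorted into cells of low and of high GFP fluorescence, and plated overnight. The low-MYC and high-MYC groups had 2 libraries each, which are technical replicates, so p-values compare these libraries and not independent cell preparations. They were prepared with an mRNA kit (TruSeq Stranded mRNA), so levels and ranks of lncRNAs depend on how well each is captured. Sites of the single-strand DNA binding protein FUBP1 in MEFs (1 ChIP-seq sample) were also examined. So were positions of TACh-seq reads, which mark nuclease-accessible chromatin, from wild-type (WT) MEFs and from MEFs labelled KOKD. KOKD cells are Fubp1 knockout MEFs in which Fubp2 was knocked down with siRNA.

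LncRNAs are transcripts without a long open reading frame. Some stay in the nucleus, such as Malat1 and Neat1, and others act in the cytoplasm, such as Norad, which binds Pumilio proteins. A separate kind serves mainly as precursor: the introns of Snhg genes and of Gas5 carry box C/D or H/ACA snoRNAs, which guide the chemical modification of ribosomal RNA, while the spliced exons are exported and often removed by nonsense-mediated decay. Their promoters tend to resemble those of ribosomal protein genes, with a pyrimidine-rich start. MYC, the transcription factor by whose level the cells were sorted, binds the E-box CACGTG and is known for raising ribosome production.

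The starts of snoRNA host genes are shown because this initiator is the feature they are known to share. RefSeq promoters (GRCm38.p6, 250 bases before to 50 after each start) matched 53 of the 119 members by name. Each line holds 60 bases on the gene's strand, with the annotated start at base 31, and capitals mark the longest run of C and T that opens with C near the start.
Gas5: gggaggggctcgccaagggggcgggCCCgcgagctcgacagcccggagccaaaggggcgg
Snhg1: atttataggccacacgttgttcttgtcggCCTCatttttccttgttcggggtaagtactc
Snhg5: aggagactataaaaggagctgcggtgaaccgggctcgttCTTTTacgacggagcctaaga
Snhg8: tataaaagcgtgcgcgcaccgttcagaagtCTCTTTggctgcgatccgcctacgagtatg
Snhg12: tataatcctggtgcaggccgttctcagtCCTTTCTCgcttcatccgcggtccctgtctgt
Snhg15: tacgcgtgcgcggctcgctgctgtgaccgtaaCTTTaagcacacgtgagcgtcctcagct
Snhg17: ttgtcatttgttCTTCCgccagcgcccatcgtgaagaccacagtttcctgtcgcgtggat
Snhg18: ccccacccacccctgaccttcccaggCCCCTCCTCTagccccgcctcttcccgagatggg
2410006H16Rik: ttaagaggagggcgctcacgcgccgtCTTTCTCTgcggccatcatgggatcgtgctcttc
1110038B12Rik: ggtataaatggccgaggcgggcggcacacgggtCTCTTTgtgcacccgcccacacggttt
Zfas1: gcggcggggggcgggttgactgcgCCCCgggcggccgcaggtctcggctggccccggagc
Rab26os: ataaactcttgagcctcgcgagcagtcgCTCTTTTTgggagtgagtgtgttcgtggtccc
AI506816: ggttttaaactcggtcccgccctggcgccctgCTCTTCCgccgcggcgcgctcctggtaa
Rian: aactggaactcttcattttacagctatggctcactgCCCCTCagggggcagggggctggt
A run of 8 or more such bases within 20 bases of the start was present in Snhg12 and Snhg18, 2 of the 8 Snhg or Gas5 promoters with sequence, and in 2 of 6 promoters of other snoRNA hosts, 2410006H16Rik and Rab26os. Over all 53 members the share was 22.6%, and over the 32851 promoters of the RefSeq set it was 13.7%. The annotated starts of Gas5, Rian, Snhg8, Snhg17 and Snhg12 lie 179, 137, 68, 58 and 55 bases from those of the expression table, so the window depends on the annotation used. A match is a description of the letters and not a site of regulation.

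The E-box CACGTG, which reads the same on both strands, occurred in the promoters of 5 of 53 members (9.43%) and in 7.15% of all RefSeq promoters. These are the 5, with the E-box in capitals. Snhg15 (chr11, minus strand) was the sole Snhg member among them, and its E-box lies 11 bases past the annotated start.
Snhg15: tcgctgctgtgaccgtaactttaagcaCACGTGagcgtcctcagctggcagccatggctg
3300005D01Rik: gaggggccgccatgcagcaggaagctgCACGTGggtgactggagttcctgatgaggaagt
1110002L01Rik: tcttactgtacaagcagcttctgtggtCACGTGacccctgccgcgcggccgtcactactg
Gm17586: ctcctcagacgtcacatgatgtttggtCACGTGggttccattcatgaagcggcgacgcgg
Ifi30: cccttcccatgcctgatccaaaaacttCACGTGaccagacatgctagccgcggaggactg
The log2 change of Snhg15 relative to the median gene was -0.26 (adjusted p = 0.0527). Those of 3300005D01Rik, 1110002L01Rik, Gm17586 and Ifi30 were -0.11, -0.06, -0.06 and -0.46. Whether the E-box had a part in any change was not tested.

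The table's label lncRNA was checked against 2 other annotations. By position and name, 111 of the 119 members matched GENCODE M21 exactly. This match does not cover the type, and GENCODE M21 types 4 members as coding. RefSeq held no entry by name for 52 members, so their label was not checked there. For 6 members RefSeq gave another type: Ifi30 (a lysosomal thiol reductase), Tmem134, Ptpmt1 (a mitochondrial phosphatase) and 1810058I24Rik are coding there, and Gm10076 and Gm47761 are pseudogenes. U90926 is among those coding in GENCODE M21 and is a lncRNA in RefSeq. Besides the 10 Snhg and Gas5 members, 8 had a snoRNA annotated within them: Zfas1, 1110038B12Rik, 2410006H16Rik, Rian, Rab26os, Epb41l4aos, 1810032O08Rik and AI506816. In AI506816 that entry is named Mir3096.

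Of all libraries' summed normalized FPK, the members held 1.59% and 1.49% in the low-MYC replicates and 1.62% and 1.60% in the high-MYC replicates, so the groups lay next to each other. A few genes carried most of it. The 5 highest members made up 1.12% to 1.24% of the library sums, and the 10 Snhg and Gas5 genes 0.0591% to 0.0665%. The median member ranked 4540 of 19769 genes, 11 members were among the 1000 highest, and 46 had a mean under 1. By the value of a single fragment estimated from low values, the lowest of 58 members with 1 annotated transcript rested on about 20.0 reads in its weakest library, and the median member on about 244. That estimate is rough. Of gene values up to 20 reads, 43.1% to 45.4% in a library lay within 0.1 of a whole number of reads.

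Bc1, a short RNA polymerase III transcript best known from neurons, was the highest member and the gene of rank 19. How well an mRNA library captures such a transcript is not known here, so its rank may not reflect its abundance. It was listed at 295 and 299 in the low-MYC replicates and at 675 and 777 in the high-MYC replicates. The groups were far apart and the change per cell was 1.29 ± 0.08 on the log2 scale (SE, adjusted p = 2.39e-05). Gm10076, on chromosome 14, followed with 154 and 149 against 334 and 310. Gm26825 on chromosome 5 had 52.6 and 50.3 against 109 and 114, again about a doubling in both replicates.

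AY036118, among the highest members, Gm42418 and Gm26917 lie beside or over each other at chr17:39843013-39848788 (mm10). RefSeq lists a pseudogene copy of 18S ribosomal DNA there, Rn18s-rs5 (39846354 to 39848202), and gives Gm42418 as a synonym of it. AY036118 differed between replicates more than the other high members, with 42.9 and 24.9 in the low-MYC and 122 and 73.4 in the high-MYC libraries. The starts of these 3 genes had 2336 to 4252 TACh-seq reads within 500 bp, while no other member had more than 463. Reads of ribosomal RNA and of these genes cannot be told apart here, and the values of the 3 members are uncertain.

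The cytoplasmic lncRNA Norad, listed as 2900097C17Rik, had 16.7 and 17.7 in low-MYC and 38.0 and 41.9 in high-MYC cells. Malat1, a nuclear speckle RNA, had 9.65 and 10.8 against 23.9 and 29.9. Cyrano (1700020I14Rik), which promotes the decay of miR-7, had 3.35 and 3.58 against 7.47 and 8.32. In each the groups were separate by more than the replicates differed, and relative to the median gene the log2 changes were 0.04, 0.21 and 0.01 (adjusted p = 0.534, 0.22 and 0.919). Tug1 (4.95 and 5.21 against 10.7 and 12.1) and Neat1, the RNA scaffold of paraspeckles (1.33 and 1.09 against 2.78 and 3.08), behaved likewise, with relative changes of -0.02 and 0.10. Gm42047 (5.78 and 5.58 against 13.1 and 14.1) was also among the 10 highest members, as were AI506816, Gas5 and Gm26809, described further on.

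Several well-known lncRNAs were far below the threshold in these fibroblasts. Xist, which coats the inactive X chromosome, was between 0.00209 and 0.00386. Pvt1, the neighbour of Myc on chromosome 15, reached at most 0.0317. Hotair, Airn and Kcnq1ot1 were at most 0.0199. Among 13 listed genes of the Hox and developmental antisense list, 0 were members. Of those, Hoxa11os was just outside, with a mean of 0.489, beside 1600027J07Rik (0.488) and 4921531C22Rik (0.475). Just inside were Gm17501 (0.511), Gm15867 (0.506) and C230013L11Rik (0.504).

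On the spike-in scale, high-MYC cells held more of nearly every transcript per cell, about 2 times as much at the median. Of 11870 tested genes (mean level 0.1 or more), 97.1% were higher in high-MYC cells at an adjusted p under 0.01, 55.1% were so by at least 2-fold, and 0.0253% were lower; the median log2 change was 1.03. The estimated value of 1 read in the high-MYC replicates was 2.25 and 2.54 times that in low-MYC replicate 1. In low-MYC replicate 2 it was 1.00 times that value. The common rise thus rests on the spike-in scale, whose error would shift all genes alike and was not tested. In bulk libraries more cells of a kind and more RNA per cell cannot be told apart. Myc itself was 9.81 and 9.86 in low-MYC and 20.29 and 20.502 in high-MYC cells.

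Of the 119 members, 118 were higher per cell in high-MYC cells and 72 were at least 2-fold higher. None was lower, at an adjusted p under 0.01 or at an unadjusted p under 0.05. Their log2 changes, on the scale of log2(normalized FPK + 0.1), ran from 0.62 to 2.90 with a median of 1.07, beside 1.03 for all tested genes. The share of members at least 2-fold higher was 60.5%, above the 55.1% of all tested genes and below the 76.4% of the 7122 protein-coding genes held to the same level rule. The mean level of the median member was 1.44 and that of the median such coding gene 1.80, and the difference in share was not tested. In all 119 members both high-MYC values exceeded both low-MYC values, as they did in 99.0% of the tested genes. Gm27000, on the X chromosome, was the member that missed the threshold (0.724 and 0.293 against 0.942 and 0.981), since its low-MYC replicates differed. The pseudocount shrinks changes of low genes, and with a pseudocount of 1 the members called at least 2-fold higher were 16. A mean of at least 0.5 was reached through the high-MYC libraries by 38 members, whose low-MYC mean was under 0.5, so the direction of these was partly set by the choice of members.

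The next comparison asked which lncRNAs departed from this common rise. All libraries were brought to a common median over the tested genes, and the log2 change is then relative to the median gene. Here 1.76% of tested genes were higher and 0.531% lower at an adjusted p under 0.01. Of the members 4 were higher and none lower. At an unadjusted p under 0.05, 17 members were higher and 24 lower, beside 2055 and 1878 of all tested genes. The median over members was -0.02, and 65 of 119 had a relative change below 0, beside 51.5% of all tested genes.

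**Figure D1:**
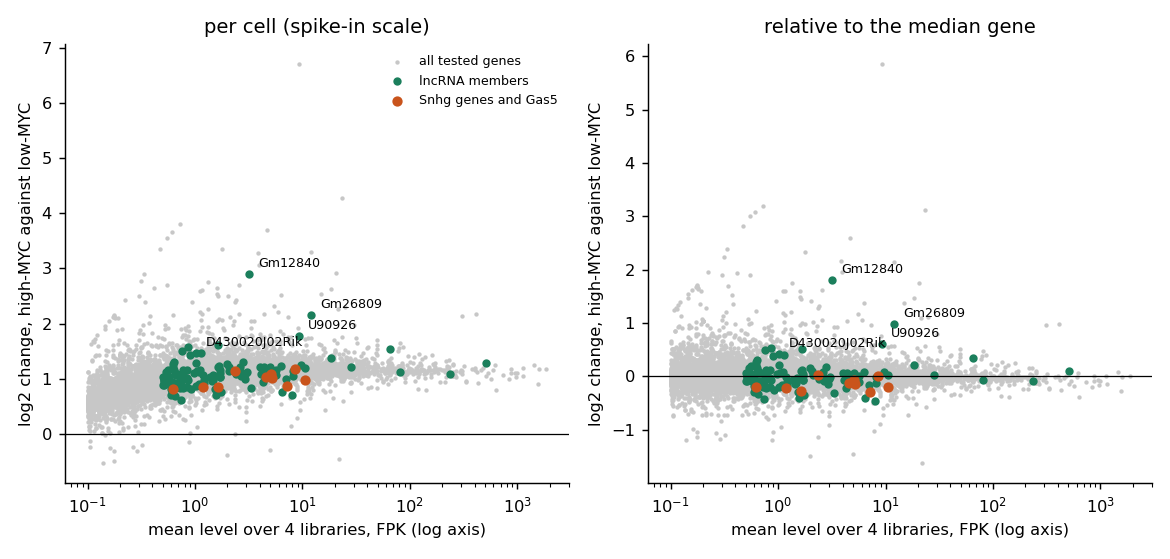
Each point is a gene, with its mean level over 4 libraries on the horizontal axis (normalized FPK, log axis) and its log2 change in high-MYC against low-MYC cells on the vertical axis, per cell (left) and relative to the median gene (right). Green points are the 119 lncRNA members and orange points the Snhg genes and Gas5; on the left members lie between 0.62 and 2.90, all above 0, and on the right they scatter about 0 with Gm12840 at 1.80 as the highest.

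Gm12840, on chromosome 4 (chr4:117700188-117700923), rose most. It was 0.635 and 0.702 in the low-MYC replicates and 5.06 and 6.29 in the high-MYC replicates, 8.49 times as high by group means. Relative to the median gene its log2 change was 1.80 ± 0.09 (SE, adjusted p = 0.00388). The gene is separate from coding genes, the nearest being Dmap1 at 17915 bp, and had 0 listed TACh-seq reads within 500 bp of its start.

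Gm26809, on chromosome 6, was 4.18 and 4.54 in low-MYC and 19.2 and 20.2 in high-MYC cells. Its relative log2 change was 0.99 ± 0.04 (adjusted p = 0.00266). It overlaps Gm20186 on the opposite strand, another member, which was 1.12 and 1.21 against 2.42 and 1.83 and whose relative change was -0.30 (adjusted p = 0.286). Gm20186 starts 372 bp from Lsm8, a component of the U6 snRNP. The libraries were made with a stranded kit, but the sources do not state whether reads were counted by strand, so reads of overlapping genes may be mixed.

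U90926, on chromosome 5, was 4.10 and 4.15 in low-MYC and 13.7 and 15.04 in high-MYC cells, with a relative log2 change of 0.61 ± 0.03 (adjusted p = 0.00388). D430020J02Rik, on chromosome 12, was 0.505 and 0.495 against 1.52 and 1.60, a relative change of 0.41 ± 0.03 (adjusted p = 0.00961). It starts 192 bp from Ncapg2, a condensin II subunit, whose relative change was 0.17 (adjusted p = 0.0393). In all 4 members the groups were separate and the low-MYC mean was at least 0.5. With a library left out the relative log2 changes were 1.68 to 1.90 for Gm12840, 0.95 to 1.04 for Gm26809, 0.59 to 0.64 for U90926 and 0.40 to 0.45 for D430020J02Rik. Leaving out a high-MYC library left no gene of any kind past the relative threshold, so that fit could call none of them. All 4 calls ended without the filter on low values (adjusted p = 0.0112 to 0.038) and with a replicate block (0.0151 to 0.0241), and that of D430020J02Rik also ended without the trend (0.011) and with scaling to the same sum (0.012).

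Other members came close, and these were picked after their values were seen. C130021I20Rik, which starts 682 bp from Lmx1b, a limb patterning gene, was 0.394 and 0.378 against 1.35 and 1.33 (relative log2 change 0.54, adjusted p = 0.013). Gm20634, which overlaps the histone gene Hist2h2aa1 in sense, was 0.741 and 0.795 against 2.54 and 2.53 (0.51, adjusted p = 0.0117). Ptgs2os2, whose start lies 64917 bp from that of the prostaglandin synthase gene Ptgs2, was 0.544 and 0.576 against 1.63 and 1.82 (0.40, adjusted p = 0.0125). In the other direction Ifi30 was 6.04 and 6.11 against 9.94 and 9.93 (-0.46, adjusted p = 0.0108). When testing was limited to means of 0.5 or more, the number of tests fell to 7795 genes, of which 335 were called higher and 202 lower. In that setting these 4 members passed, and the calls among members were 9 higher and 5 lower. The mean of 0.5 was reached only through the high-MYC libraries by 3 of the 9, C130021I20Rik (low-MYC mean 0.386), D030025P21Rik and Gm17251 (both 0.326), so their calls give no support.

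Markers of macrophages moved with the groups. The summed level of the 18 listed markers was 0.950 and 1.31 in the low-MYC and 30.3 and 31.6 in the high-MYC libraries. All 11 that were tested were at least 2-fold higher per cell, and 10 were higher relative to the median gene. Of the 18, however, 16 had a low-MYC mean under 0.1. Most of the 11 thus passed the level filter of 0.1 only through the high-MYC libraries, so their calls give no support. The 2 with a low-MYC mean of at least 0.1 were Cd14 (0.322 and 0.431 against 1.91 and 1.85) and Cd68 (0.549 and 0.661 against 4.27 and 4.72). Relative to the median gene Cd68 was called (adjusted p = 0.00394) and Cd14 was not (0.0212). Lyz2 went from 0.0305 and 0.142 to 17.99 and 18.9, while Adgre1, C1qa and Tyrobp were listed at 0 in low-MYC replicate 1. The 11 fibroblast markers summed to 338 and 343 in low-MYC and 810 and 827 in high-MYC cells, as labelled. Relative to the median gene 3 of them were higher at an adjusted p under 0.01, beside 1.76% of all tested genes, and 0 were lower. These were Lum (1.33), Dcn (0.89) and Pdgfra (0.35). Endothelial, epithelial, erythroid and skeletal muscle markers summed to at most 0.328 in any library, on lists of which 5, 3, 1 and 1 genes were in the table. What part macrophage RNA had in the rise of Gm12840, Gm26809, U90926, D430020J02Rik or Ptgs2os2 was not tested.

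The Snhg genes and Gas5 rose per cell with the rest of the transcriptome. All 10 Snhg and Gas5 members were higher in high-MYC cells at an adjusted p under 0.01 (97.1% of all tested genes), and 5 were at least 2-fold higher (55.1% of all tested genes): Snhg5, Snhg6, Snhg8, Snhg12 and Snhg18. Their median log2 change per cell was 0.99, beside 1.03 for all tested genes. Relative to the median gene the median was -0.17, and 8 of the 10 were below 0, beside 51.5% of all tested genes. That count was 8 or 9 under the other scalings. None passed an adjusted p of 0.01 in either direction, but with testing limited to means of 0.5 or more Snhg1 was called lower (adjusted p = 0.00821). At an unadjusted p under 0.05, 6 were lower and 0 higher, beside 15.8% and 17.3% of all tested genes. The 2-fold line runs through the middle of the series, so the count of 5 moved between 2, without high-MYC replicate 2, and 6, without high-MYC replicate 1, and was 3 without low-MYC replicate 2.

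Gas5, a host of box C/D snoRNAs such as Snord47, was the highest of the series, with 7.05 and 6.95 in low-MYC and 13.2 and 14.6 in high-MYC cells. Its relative change was -0.19 ± 0.04 (adjusted p = 0.0475). Snhg1 (5.15 and 4.9995 against 8.84 and 9.88) had the lowest relative change, at -0.29 ± 0.04 (adjusted p = 0.032). Snhg15, host of Snora9, was 1.18 and 1.10 against 2.03 and 2.23 (-0.26, adjusted p = 0.0527). In these the replicates were close and the group means differed by less than 2-fold.

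Snhg17 (0.840 and 0.790 against 1.47 and 1.65) and Snhg4, host of Snora74a (0.445 and 0.416 against 0.793 and 0.861), were lower in level and similar in change, at -0.22 and -0.20. Snhg5, host of Snord50a and Snord50b, was 3.47 and 3.36 against 6.81 and 7.10, and Snhg12 was 3.08 and 2.91 against 5.93 and 6.56. Snhg6, host of Snord87, was 3.06 and 3.43 against 6.54 and 7.41. These 3 lay at -0.15, -0.11 and -0.07, nearer to the median gene. Snhg18, host of Snord123 (1.42 and 1.42 against 3.20 and 3.34), and Snhg8, host of Snora24 (5.11 and 5.33 in low-MYC cells), were at 0.02 and 0.00. The high-MYC replicates of Snhg8 were apart, at 12.96 and 10.8, so its relative change is the least certain of the series (SE 0.12).

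Of the other 8 snoRNA hosts, all were higher per cell at an adjusted p under 0.01 and 4 at least 2-fold (97.1% and 55.1% of all tested genes). Below the median gene were 7, or 6 when libraries were scaled to the same sum, beside 51.5% of all tested genes. Zfas1, host of Snord12, was 2.35 and 2.35 against 4.14 and 4.40, a relative change of -0.31 ± 0.03 (adjusted p = 0.0114, and 0.00245 with testing limited to means of 0.5 or more, where it was called lower). Rab26os, host of Snord60, was 1.18 and 1.36 against 2.18 and 2.27 (-0.35, adjusted p = 0.0443). AI506816, the highest of the 8, was 6.44 and 6.28 against 14.3 and 14.97, and its relative change was 0.02. Epb41l4aos (0.755 and 0.797 against 1.49 and 1.75), 1110038B12Rik (5.20 and 5.28 against 10.6 and 11.2) and 2410006H16Rik (3.67 and 3.597 against 7.51 and 7.86) were between -0.12 and -0.10. Dancr, a further listed host, was below the level threshold (0.278 and 0.180 against 0.349 and 0.339).

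**Figure D2:**
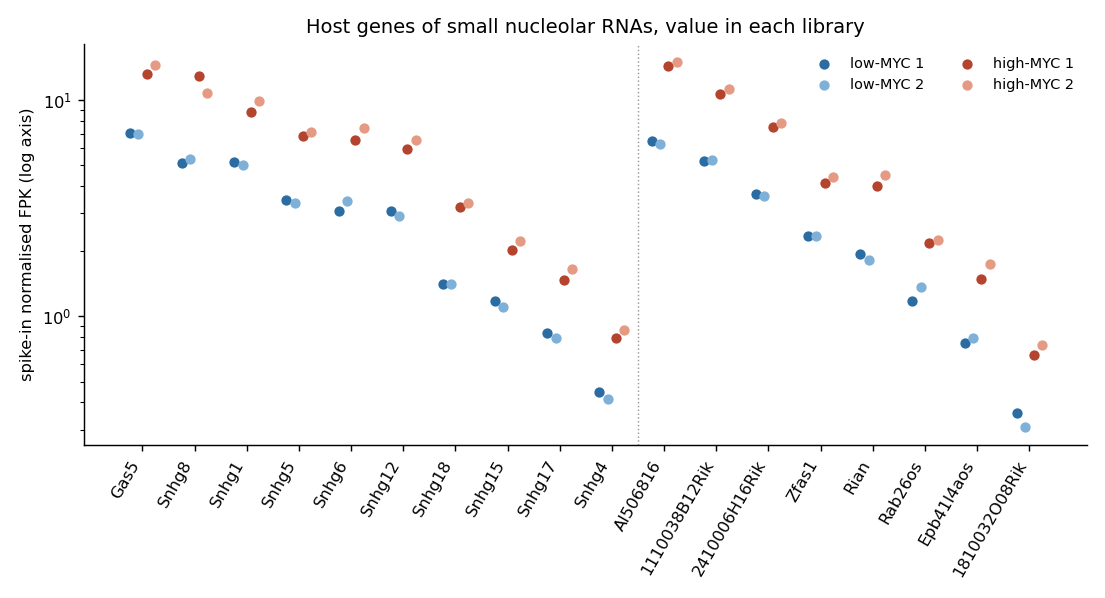
Normalized FPK (log axis) of the 10 Snhg and Gas5 genes (left of the dotted line) and the 8 other members that contain an annotated snoRNA (right), 1 point for each library, blue for low-MYC and red for high-MYC. In each gene both red points lie above both blue points, and the step is of similar height along the row.

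The proteins that pack and mature snoRNAs were compared as a list. The background for this and the next lists was 97.1% of tested genes higher per cell, 55.1% at least 2-fold higher, and 51.5% with a relative change below 0. Of 15 tested box C/D and H/ACA factors, all rose per cell and 9 at least 2-fold, none passed the relative threshold, and all 15 were below the median gene, with a median of -0.10. Fibrillarin (Fbl), the methyltransferase of box C/D particles, was 4.02 and 4.19 against 8.33 and 8.71. Of 12 nonsense-mediated decay factors, which degrade the spliced exons of many hosts, all rose per cell, 5 at least 2-fold, and none passed the relative threshold. Of 10 paraspeckle proteins, the partners of Neat1, 9 rose at least 2-fold and none passed the relative threshold. For 10 microRNA processing factors the counts were 8 and 0.

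Imprinted and microRNA-bearing members were Rian, Peg13, Dnm3os, Mir22hg and Gm37233. Rian, expressed from the maternal Dlk1-Dio3 allele, was 1.95 and 1.82 against 3.99 and 4.50, and Peg13, a paternally expressed gene within Trappc9, was 2.54 and 2.66 against 5.30 and 5.92. Their relative changes were -0.01 and -0.07. Dnm3os, the antisense transcript within Dnm3 that carries miR-199a and miR-214, was 1.09 and 1.00 against 2.22 and 2.53, and Mir22hg was 1.54 and 1.499 against 3.19 and 3.46. The relative changes were 0.00 and -0.05. Gm37233, which holds Mir5103, was 0.589 and 0.555 against 1.08 and 1.16, a relative change of -0.19 (adjusted p = 0.0739). The mature microRNAs encoded in Dnm3os and Mir22hg are shown to identify the products, which were not measured here, with seeds (bases 2 to 8) in capitals. No seed was shared among them.
mmu-miR-199a-5p: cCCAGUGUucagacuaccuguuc
mmu-miR-199a-3p: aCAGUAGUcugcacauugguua
mmu-miR-214-5p: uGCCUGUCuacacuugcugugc
mmu-miR-214-3p: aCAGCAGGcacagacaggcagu
mmu-miR-22-5p: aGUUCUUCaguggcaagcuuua
mmu-miR-22-3p: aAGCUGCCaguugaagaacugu
Mir17hg, host of a cluster that MYC is known to activate, was below the threshold, at 0.0893 and 0.116 against 0.228 and 0.2496, and its relative change was 0.03 (adjusted p = 0.825).

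By position, 44 members started within 1000 bp of a coding gene on the opposite strand (head to head). Some of these, such as Gas5 and Tug1, also overlapped that gene. Of the rest, 19 overlapped a coding gene in antisense, 10 overlapped one in sense and 46 were separate. Median log2 changes per cell were 0.99, 1.03, 1.03 and 1.13 in this order. All 44 head-to-head members and 45 of 46 separate members were higher at an adjusted p under 0.01, and at least 2-fold in 21 and 35, beside 97.1% and 55.1% of all tested genes. The median of the mean level was 0.855 in head-to-head and 2.73 in separate members, and the pseudocount shrinks changes at low levels. The separate members hold 3 of the 4 that passed the relative threshold.

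Head-to-head lncRNAs were set beside their coding neighbours. For 38 pairs with both genes tested, the starts were a median of 249 bp apart, and 26 lay on the same side of the median gene. Across the pairs, which share libraries and scaling, Pearson's r of the relative log2 changes was 0.56 and Spearman's rho 0.52, given as a description. Some of the pairs, such as Gas5 and Zbtb37, overlap. Shared reads could give both genes the same change, and this was not tested. Snhg1 (-0.29) starts 106 bp from the amino acid transporter gene Slc3a2, which was at -0.45 (adjusted p = 0.0103). Zfas1 (-0.31) and Znfx1 (0.08), with starts 81 bp apart, lay on opposite sides of 0, as did Rab26os (-0.35) and Traf7 (0.03). Gm20632 was at 0.07 while its histone neighbour Hist2h3c2 was at 0.57 (adjusted p = 0.00391). The level of the lncRNA was below that of the coding gene in 20 of the 38 pairs.

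Among the antisense pairs that were not head to head, 13 could be compared, with an r of 0.88 and a rho of 0.68. Gm26735 was at -0.41 and Sox4, the transcription factor gene it overlaps, at -0.42. Gm9913 was at 0.39 and Fbn1, the gene of fibrillin, at 0.53 (adjusted p = 0.00729). Where genes overlap, shared reads could give both the same change, and this was not tested. For the 31 pairs of separate members with the nearest coding gene the r was 0.10 and the rho 0.20.

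**Figure D3:**
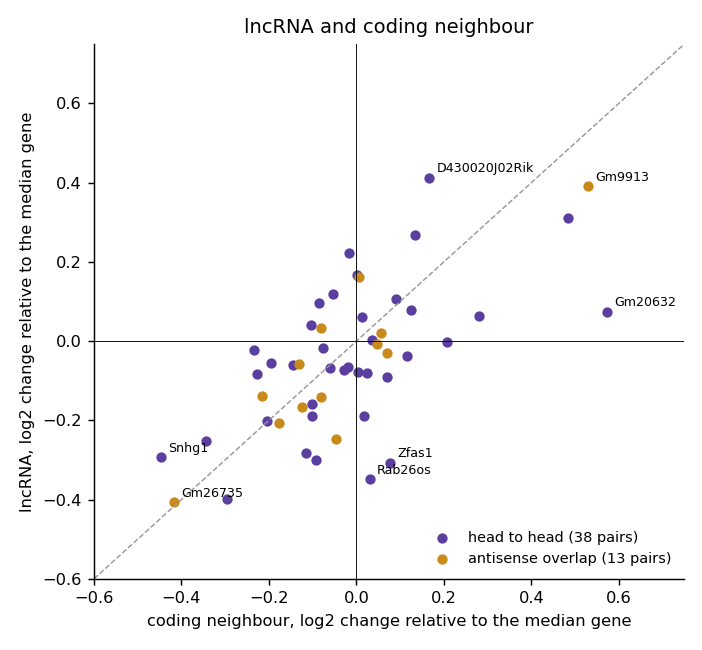
Each point is a lncRNA with its coding neighbour, plotted by the log2 change relative to the median gene of the neighbour (horizontal) and of the lncRNA (vertical). Purple marks 38 head-to-head pairs, some of which overlap, and ochre 13 other antisense pairs. The dashed line marks equal change; Snhg1 and Gm26735 sit at its lower end, Gm9913 near its upper end, and Zfas1 and Rab26os below it.

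Accessible chromatin was a measure that the choice of members had not used. The TACh-seq data hold 4881417 read positions, and no column names a library. Their label refers to WT peaks, while samples of both WT and KOKD cells refer to them. WT and KOKD cells therefore cannot be told apart, and no error between replicates can be given. Whether only reads within called peaks were kept is not stated. If so, a count of 0 means no peak and not an absence of reads. At least 1 read lay within 500 bp of the start in 82 of 119 members (68.9%, exact 95% binomial interval 59.8% to 77.1%, which covers counting error only). The share was 70.0% of 290 lncRNA genes with a mean of 0.1 to 0.5, close to that of the members, 56.4% of all 2040 lncRNA genes below the threshold, 88.3% of 7122 protein-coding genes with a mean of at least 0.5, and 18.8% of 2311 protein-coding genes with a mean under 0.01.

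Accessibility varied with position. Reads were present at 42 of 44 head-to-head members (95.5%), with a median of 135 reads, and at 24 of 46 separate members (52.2%), with a median of 36.5. Of the Snhg and Gas5 members 9 of 10 had reads, and Snhg6 had none. Across the 119 members Spearman's rho of reads and mean level was -0.04. Among the 10 highest members, Gm10076, Gm26825, Norad, Gm26809 and Gm42047 had no listed reads at their annotated starts.

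**Figure D4:**
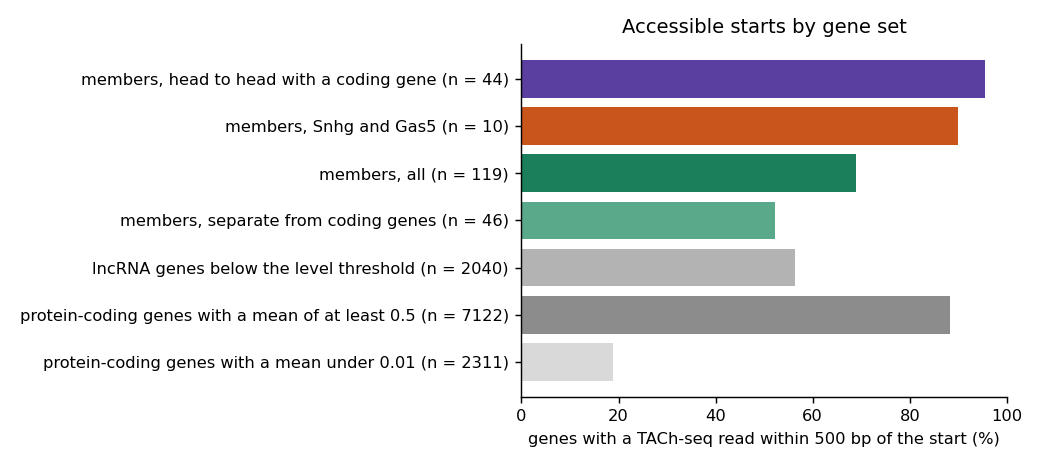
Bars give the share of genes (%) with at least 1 TACh-seq read within 500 bp of the annotated start, for lncRNA members by class and for comparison sets, with the number of genes in parentheses. Head-to-head members (95.5%) and Snhg and Gas5 genes (90.0%) have the longest bars, and separate members (52.2%) a bar close to that of lncRNA genes below the threshold (56.4%). The window of a head-to-head member often also holds the start of its coding neighbour.

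The list of FUBP1 peaks used here holds 166 positions, all on chromosome 15. The 4 members on chromosome 15, Peg13, Snhg18, Gm49463 and Gm49207, overlapped 0 of them, also when extended by 1000 bp. With 4 genes, and with 47 of the 285 protein-coding genes there with a mean of at least 0.5 overlapping a peak, this is no contrast between the kinds of gene.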

How the data were processed

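RNA-seq was analysed from the deposited signal values of 2 low-MYC and 2 high-MYC libraries. The authors trimmed reads, ran TopHat against the transcriptome of mm10, estimated transcript amounts by expectation-maximization (Partek), and normalized these for transcript length and for the geometric mean of ERCC transcripts. This splits reads of near-identical and overlapping genes, which are therefore uncertain. Versions and strand-specific counting are not given in the sources used here. Read counts are not used here, so depth is approximate. No column was left unassigned. The deposited TACh-seq positions (Bowtie2) and FUBP1 peak positions (SICER, against input) were compared with gene starts and gene bodies.

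The members and lists were chosen with earlier results of these data known. Genes with a mean of at least 0.1 were compared on log2(normalized FPK + 0.1) with limma 3.58.1 (lmFit, eBayes with trend) in R 4.3.3, with Benjamini-Hochberg adjustment over 11870 genes, as deposited and after rescaling each library to the same median. Genes were called at an adjusted p under 0.01, and per cell also by at least 2-fold. Simulated data for high-MYC against low-MYC (11870 genes) were fitted without rescaling. In these, 47 of 67 genes changed by log2 1 and 61 of 66 changed by log2 2 were recovered, with 0 false calls. At log2 0.5 it was 9 of 67. Named genes are all Snhg and Gas5 members, members on the lists, the 10 highest members, the members past the relative threshold (up to 8 in each direction) and the 3 genes on each side of the level threshold. Others were named after their values were seen. Coordinates are 1-based. Other steps ran in Python 3.11.15 (matplotlib 3.10.9, scipy 1.17.1, numpy 2.4.6, pandas 2.3.3). Alternatives covered the pseudocount, minimum mean, trend, scaling, fold, member threshold, replicate block, left-out libraries, TACh-seq window and peak extension.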

Additional observations from a re-analysis of the deposited data

How the results depend on the processing

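The count of members at least 2-fold higher per cell, 72, was 16 with a pseudocount of 1, 1 after rescaling to the same median and 118 at a limit of 1.5-fold, and for the 10 Snhg and Gas5 genes, 5, these were 1, 0 and 10. Without each library in turn the counts were 60 to 82 and 2 to 6. The 4 members higher relative to the median gene became 0 without the filter on low values, 9 with a minimum mean of 0.5, and 0 to 2 without each library. The count of 0 lower members became 5 with a minimum mean of 0.5, 2 with the median taken over protein-coding genes, and 1 with members of a mean of at least 0.25, and stayed 0 without any library in turn. With a minimum mean of 0.5, the calls over all 7795 tested genes were 335 higher and 202 lower. With a replicate block the counts were 72 and 5 per cell and 0 and 0 relative to the median gene, where no gene of any kind was called. The replicate numbers do not pair the samples, with a correlation of 0.081 between deviations of same-numbered libraries over 11870 genes. The relative changes of the 4 called members kept their direction in each alternative run on them, while the number of members below the median gene, 65, was 62 and 68 under the other scalings. The share of accessible starts was 68.9% at 250 bp and 70.6% at 1000 bp. In simulated data, which had no common shift and were fitted without rescaling, most changes of log2 0.5 were not recovered. The fit relative to the median gene was not simulated, and members without a call may still differ from the median gene.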
